A study of Mus musculus with 12 samples.

Results

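Gna14 and Gpa33 are 2 genes out of the 55401 counted in this series, and they were chosen by their low counts in TPS cells relative to EPS cells. The difference between the cell types therefore selected them, and it is given here as a description with no test. TPS cells are mouse totipotent potential stem cells, which the study maintains with VPA, an inhibitor of histone deacetylases, CD1530, which activates RARγ, EPZ004777, which inhibits DOT1L, and a GSK3 inhibitor of the CHIR series. EPS cells are mouse extended pluripotent stem cells grown in LCDM medium. According to the labels, both cell types were grown on feeder cells, and the TPS medium is called VCED with a 4C base. There were 3 lines of each cell type, and polyadenylated RNA of every line was sequenced as 2 technical replicates, so that there were 12 libraries. Strain, sex and the embryo each line came from are not given in the labels, and the study derived TPS cells both from EPS cells and from 2-cell embryos without saying which origin these lines have.

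Gna14 encodes the alpha subunit G14 of a heterotrimeric G protein. It belongs to the Gq class together with Gnaq, Gna11 and Gna15. When a receptor of this class is engaged, the alpha subunit binds GTP and activates phospholipase C beta, which produces inositol trisphosphate and diacylglycerol, and these release calcium and activate protein kinase C. Gpa33 encodes the cell surface A33 antigen, a membrane protein with immunoglobulin domains. It belongs to the CTX family, whose other members include the junctional adhesion molecules, and is best known from the epithelium of the small intestine and colon, where the homeobox factors CDX1 and CDX2 have been linked to its transcription.

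Gna14 (ENSMUSG00000024697.4) lies on the plus strand of chromosome 19 of GRCm38 from 16435762 to 16610820, spans 175059 bp and has 2 annotated transcripts, the longest with 7 exons. Gpa33 (ENSMUSG00000000544.14) lies on the plus strand of chromosome 1 from 166130238 to 166166510, spans 36273 bp and has 4 annotated transcripts, the longest also with 7 exons. Their longest coding sequences encode 355 and 319 residues. No transcript of another gene matched the longest transcript of either one at 95% identity or more across 50% of its length or more. The longest match of the Gna14 transcript to another gene was to Gna11, with 76.3% identity over 1047 bases. The genes annotated inside Gna14 are 2 processed pseudogenes on the opposite strand. One had 16 counts, all of them in EPS libraries, and the other had none. Nothing annotated overlaps Gpa33.

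The 250 bases before the RefSeq start of both genes are shown because the genes share a direction of change, and those of Gnaq because it is the tandem neighbour of Gna14 with the opposite direction. RefSeq held an entry for both genes, and all positions are on GRCm38.p6. The windows are chr19:16435417-16435666 for Gna14, chr1:166129971-166130220 for Gpa33 and chr19:16132434-16132683 for Gnaq, each on the plus strand, and capitals mark the letters CACCC, which occur in sites of Krüppel-like factors.
Gna14: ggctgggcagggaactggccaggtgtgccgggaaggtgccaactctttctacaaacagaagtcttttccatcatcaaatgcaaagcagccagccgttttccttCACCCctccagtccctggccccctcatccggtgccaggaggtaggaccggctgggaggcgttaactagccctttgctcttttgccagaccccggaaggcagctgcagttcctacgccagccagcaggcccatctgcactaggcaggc
Gpa33: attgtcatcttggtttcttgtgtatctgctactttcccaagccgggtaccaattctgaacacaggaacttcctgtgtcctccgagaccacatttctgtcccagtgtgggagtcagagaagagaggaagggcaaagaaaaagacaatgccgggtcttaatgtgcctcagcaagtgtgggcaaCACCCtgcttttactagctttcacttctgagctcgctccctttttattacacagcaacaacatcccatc
Gnaq: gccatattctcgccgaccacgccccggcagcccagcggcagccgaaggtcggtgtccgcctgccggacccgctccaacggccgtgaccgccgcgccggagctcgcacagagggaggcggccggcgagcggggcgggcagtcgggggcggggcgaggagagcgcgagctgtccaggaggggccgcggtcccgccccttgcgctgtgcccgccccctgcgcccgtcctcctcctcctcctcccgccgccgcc
CACCC stood once in the window of Gna14, starting 147 bases before the start, and once in that of Gpa33, starting 69 bases before the start, and not in that of Gnaq. On either strand it occurred in 52.1% of 32544 RefSeq windows of this length, so its presence sets neither gene apart. The letters TTTATNG (found in sites of CDX factors, in 9.74% of windows), AGGTCA (a nuclear receptor half-site, 14.0%), ATGCAAAT (the octamer, 1.62%), ATCAAAG (TCF/LEF sites, 3.21%) and TATAAA (the TATA box, 12.3%) were in neither member's window on either strand. CANNTG, the E-box, which reads the same on both strands, occurred 4 times in the Gna14 window, 1 time in that of Gpa33 and in 66.2% of all windows. The windows differed more in base composition. That of Gna14 was 60.0% G and C with 7 CpG, that of Gpa33 was 47.6% with 4 CpG, and that of Gnaq was 79.2% with 37 CpG, against medians of 52.4% and 6 CpG over all windows.

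Total counts per library were between 13676051 and 21821707, and those per line between 29877215 and 38466294. Levels are in CPM, counts scaled to a common library total with TMM factors, where samples are compared, and in TPM, which also divides by the length of the union of a gene's exons, where genes are compared. Of the 17468 genes tested between TPS and EPS lines with edgeR's quasi-likelihood test, 7.34% passed an adjusted p of 0.05 as lower and 14.4% as higher in TPS cells, and the median log2 fold change was -0.004. When libraries were scaled by their totals alone, 80.0% of the called genes were higher against 66.2% with TMM factors, and the median moved to 0.14. As a check of the labels, the summed level of 8 genes of 2-cell embryos was 263 to 356 CPM in TPS lines and at most 0.163 CPM in EPS lines, and that of 10 pluripotency genes was 3030 to 3800 CPM in TPS and 6480 to 8160 CPM in EPS lines.

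Gna14 was close to the limit of detection in TPS cells and was low but clearly counted in EPS cells. In the libraries of EPS lines 1, 2 and 3 it had 117 and 198, 58 and 77, and 108 and 103 counts. In those of TPS lines 1, 2 and 3 it had 7 and 7, 6 and 4, and 1 and 5 counts. Every EPS library thus lay above every TPS library, and the whole TPS group held 30 counts of Gna14 against 661 in the EPS group. Per line, the level was 10.3, 3.97 and 6.01 CPM in EPS and 0.35, 0.259 and 0.191 CPM in TPS lines. The group means were 6.75 ± 3.22 CPM (SD, n = 3 lines) in EPS and 0.267 ± 0.0798 CPM (SD, n = 3) in TPS cells. The fitted log2 fold change was -4.63 (standard error 0.5), or 24.8-fold lower in TPS cells, and the lowest EPS line was 11.4 times the highest TPS line. Counting error alone gave 95% exact Poisson intervals of 0.191 to 0.587 CPM for TPS line 1 and 0.07 to 0.415 CPM for TPS line 3, so an order among the TPS lines was not detectable at this depth. These intervals cover counting error only, since the reads carry no molecular identifiers and copies made by PCR are counted too.

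Gpa33 was strongly expressed in EPS cells and remained well counted in TPS cells. In the libraries of EPS lines 1, 2 and 3 it had 3718 and 4606, 4253 and 5402, and 4426 and 4172 counts. In those of TPS lines 1, 2 and 3 it had 1029 and 1353, 1068 and 1129, and 753 and 828 counts. The groups did not overlap here either, but the lowest TPS library still held 753 counts, so Gpa33 was low in TPS cells relative to EPS cells and not in absolute terms. Per line, the level was 272, 284 and 245 CPM in EPS and 59.5, 56.9 and 50.2 CPM in TPS lines. The group means were 267.0 ± 20.2 CPM (SD, n = 3) in EPS and 55.6 ± 4.79 CPM (SD, n = 3) in TPS cells. The fitted log2 fold change was -2.26 (standard error 0.134), or 4.8-fold lower, and the lowest EPS line was 4.11 times the highest TPS line. In bulk RNA, fewer cells that express a gene and less of its RNA in each cell cannot be told apart, which holds for both genes.

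**Figure D1:**
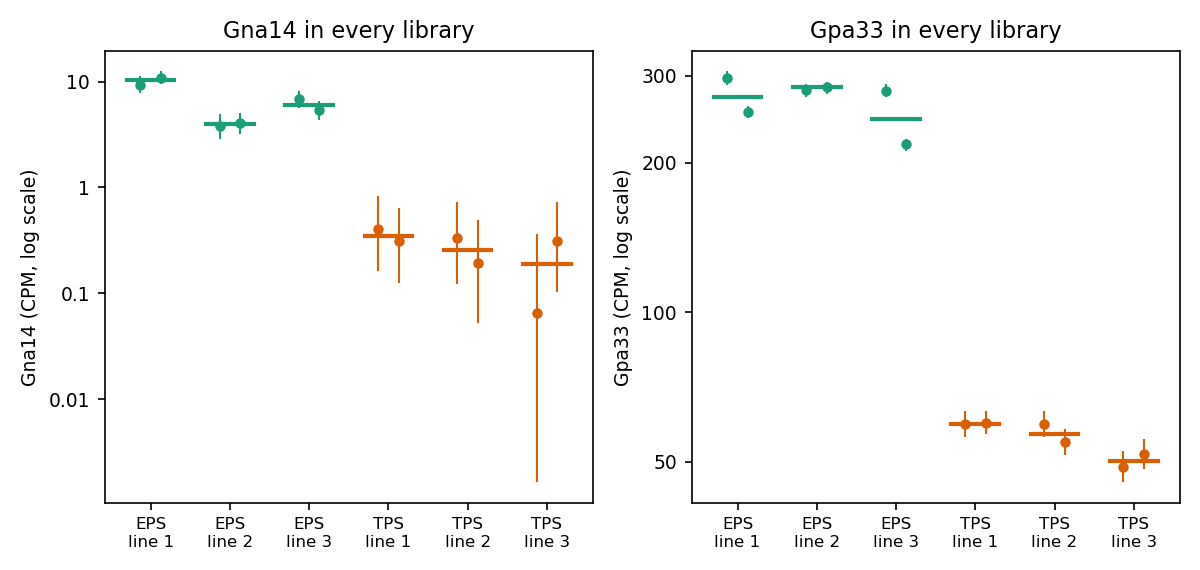
CPM on a log scale of Gna14 (left) and Gpa33 (right) in every library, by line. Points are technical replicates with 95% exact Poisson intervals, horizontal bars are the lines with both replicates summed, and EPS is green and TPS orange. The 6 EPS libraries lie above the 6 TPS libraries for both genes, Gna14 at 3.82 to 10.9 against 0.065 to 0.405 CPM and Gpa33 at 218 to 297 against 48.9 to 60.0 CPM.

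The changes of the members differed in kind. By size of the log2 fold change, Gna14 was the first of the 17468 tested genes in the direction lower in TPS, with the homeobox genes Nkx6-3 at -4.57 (standard error 0.676) and Nkx6-2 at -4.41 (standard error 0.554) next. These differences are smaller than the standard errors, and the place of Gna14 moved between 1 and 7 when 1 line was left out and to 21 with no filter on low counts. Gpa33 was at position 89, and between 85 and 152 with 1 line left out and at 1026 with no filter, and it stood between Tsks at -2.28 and Gpr143 at -2.26, which had 2.97 and 1.47 CPM in EPS cells. Among the 2899 tested genes with at least 50 TPM in EPS cells, a group that Gna14 did not reach, Gpa33 stood at position 10. That cut is on the level in EPS cells, and Gpa33 was chosen by the same difference, so the position is a description only. Per length, Gpa33 had 240.0 ± 24.4 TPM (SD, n = 3) in EPS cells, above 96.7% of tested genes, and 57.0 ± 4.7 TPM (SD, n = 3) in TPS cells, above 84.5%. Gna14 had 4.72 ± 1.81 TPM (SD, n = 3) in EPS cells, above 40.9% of tested genes, and 0.218 ± 0.0632 TPM (SD, n = 3) in TPS cells, above 1.48%. Every TPS line lay below every EPS line for 19.1% of tested genes, so this property by itself is common.

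Differences between lines of the same cell type were not used to choose the genes and could be tested over the technical replicates. The error in this test is technical, and it called 53.7% of 15519 genes between EPS lines and 66.6% of 16854 genes between TPS lines. Gna14 differed between EPS lines (edgeR adjusted p = 0.00103). EPS line 1, at 10.3 CPM, was 2.59 times EPS line 2, at 3.97 CPM, with EPS line 3 in between. Counts of the paired libraries of each line were farther apart than Poisson error allows (chi-square divided by its degrees of freedom over all genes with 10 counts or more, 2.69 to 22.3 in EPS and 2.58 to 3.83 in TPS lines), so Poisson intervals understate the error of a level. Gpa33 did not pass the threshold between EPS lines (edgeR adjusted p = 0.402), where the highest line was 1.16 times the lowest. Its technical replicates in EPS line 3, at 279 and 218 CPM, were farther apart than its 3 EPS lines. Between TPS lines Gpa33 passed the threshold (edgeR adjusted p = 0.00893), with TPS line 1 at 1.18 times TPS line 3, and it did not pass with a likelihood ratio test in DESeq2 (adjusted p = 0.111). Gna14 had too few counts in TPS cells to be tested between TPS lines with edgeR. As a share of the mean, the SD between lines was 47.7% in EPS and 29.9% in TPS cells for Gna14, and 7.56% and 8.61% for Gpa33. The summed level of 18 fibroblast genes, none of them without counts, was 370 CPM in EPS line 1 and 1530 and 1590 CPM in EPS lines 2 and 3, so the EPS line with the most Gna14 had the least RNA of fibroblast genes. The part of these cells in the spread of Gna14 was not tested.

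Of the other G alpha subunit genes, 14 were tested, 1 of them called lower (7.14%) and 2 called higher (14.3%), close to the shares over all tested genes, with a median log2 fold change of 0.12. The lower gene was Gna15, a Gq class subunit known for coupling to many receptors. It had 14.0, 15.6 and 15.7 CPM in EPS and 4.3, 6.06 and 6.42 CPM in TPS lines, with no overlap, and fell by 1.43 on the log2 scale (standard error 0.237, edgeR adjusted p = 0.00746). Gnaq, the Gq class subunit next to Gna14, had 26.0, 29.1 and 31.7 CPM in EPS and 46.6, 39.5 and 43.5 CPM in TPS lines. It rose by 0.58 on the log2 scale (standard error 0.149, edgeR adjusted p = 0.0316), but this call was lost in 5 of the 6 leave-one-line-out fits, all except that without EPS line 3, with an adjusted p up to 0.0975. Gna11, the most abundant subunit of the class, was at -0.02 on the log2 scale (standard error 0.195), or 0.14 with library totals alone. The other gene called higher was Gnai1, an inhibitory subunit, at 0.76 (edgeR adjusted p = 0.0276), and its call was lost in 5 of 6 such fits, all except that without EPS line 2, with an adjusted p up to 0.0773. Neither Gnai2 (-0.40), Gnai3 (0.05), Gna12 (0.19), Gna13 (-0.37), Gnaz (0.40), Gnao1 (0.94), Gnal (1.17), Gnas (-0.05), Gnat1 (-1.02) nor Gnat2 (0.97) passed the threshold with edgeR, Gnal and Gnat2 passed with DESeq2 (adjusted p = 0.0295 and 0.0433), and Gnas turns positive with library totals alone or upper quartile factors. Gnas overlaps a protein-coding gene on the opposite strand, so its reads could have been lost in counting.

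The make-up of the Gq class per length differed between the cell types. The 4 genes summed to 77.2 ± 3.76 TPM (SD, n = 3) in EPS and 76.8 ± 2.5 TPM (SD, n = 3) in TPS cells. How near these sums lie depends on the scaling, since CPM with TMM factors per kb of exon, which was added after seeing the data, gave 31.6 ± 4.76 (SD, n = 3) in EPS and 27.3 ± 1.11 (SD, n = 3) in TPS cells. The shares within a line do not depend on it. Gna14 made up 8.08%, 3.94% and 6.17% of this sum in EPS lines 1, 2 and 3 and 0.367%, 0.29% and 0.197% in TPS lines 1, 2 and 3. Gna15 made up 22.9 ± 4.49% (SD, n = 3) in EPS and 9.62 ± 2.05% (SD, n = 3) in TPS cells, and Gnaq 15.2 ± 3.47% and 25.6 ± 1.4%. Gna11 made up 55.9 ± 6.59% and 64.5 ± 0.595%. In EPS cells Gna14 was the ninth of the 16 listed G alpha genes, or the tenth, below Gnas, with the longest transcript as the length. With the union of exons it stood between Gnaq at 11.6 ± 2.18 TPM (SD, n = 3) and Gnaz at 3.59 ± 0.683 TPM (SD, n = 3). Its EPS lines, at 2.97 to 6.59 TPM, overlapped those of Gnaz and not those of Gnaq. In TPS cells it was the fifteenth, below Gnat1, a subunit of rod photoreceptors, at 0.389 to 1.15 TPM, and above the taste cell subunit gene Gnat3 at 0.0 to 0.204 TPM, which its own 0.156 to 0.283 TPM overlapped.

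**Figure D2:**
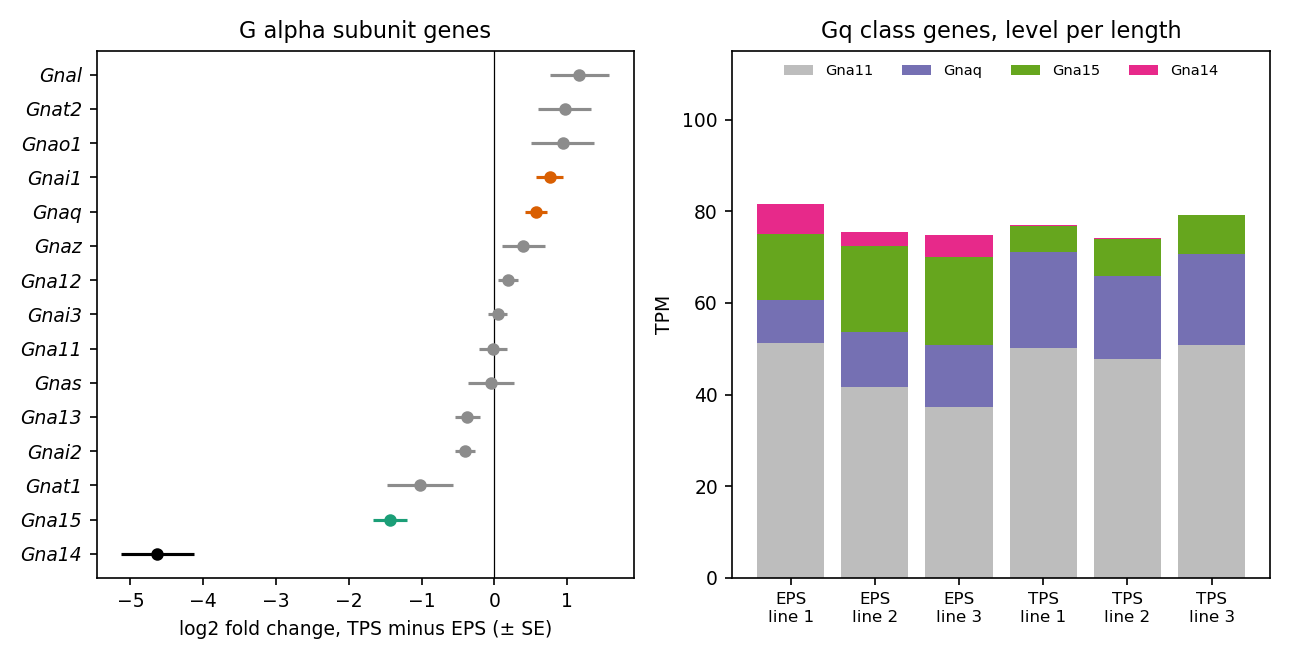
Left, log2 fold change of 15 G alpha genes with its standard error, green if called lower, orange if called higher, grey if not called in TPS lines, and black for Gna14, which was chosen for this difference. Right, stacked TPM of the 4 Gq class genes in each line, in which the totals on this scale lie between 74.2 and 81.5 TPM in all lines while the Gna14 layer is visible in the EPS lines and below 0.3 TPM in the TPS lines.

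None of the 4 tested G beta, 9 G gamma, 16 Gq effector and 11 Gq regulator genes was lower in TPS lines, and 2, 3, 6 and 4 of them were higher, with median log2 fold changes of 0.45, 0.16, 0.91 and 0.46. Over all tested genes 7.34% were lower and 14.4% higher, and lists of this size are too short to show a lack of lower genes against that share. Leaving out 1 line gave 1 to 2, 0 to 3, 2 to 5 and 1 to 4 higher genes in the 4 lists. Phospholipase C beta, the direct effector, did not pass the threshold in any of its tested forms, with Plcb1 at 1.08, Plcb3 at -0.36 and Plcb4 at -0.41. Prkch and Prkcb, 2 protein kinase C genes, rose by 2.76 and 1.83 (edgeR adjusted p = 0.00832 and 0.013). Prkca (1.30), Prkcd (0.68), the calcium release channel gene Itpr2 (1.28) and the guanine nucleotide exchange factor gene Kalrn (1.13) were also called higher, but lost their calls in 4, 5, 5 and 3 of the 6 leave-one-line-out fits, with adjusted p up to 0.0794, 0.089, 0.0973 and 0.0618. Not called with edgeR were Prkcq (2.77, and 2.18 to 4.72 with 1 line left out), Prkce (0.27), Trio (0.84), Itpr3 (0.35), Itpr1 (-0.02) and Arhgef25 (-0.10), the last 2 of which are positive with library totals alone. DESeq2 called Prkcq and Trio (adjusted p = 0.0422 and 0.0281). Among the G beta and gamma genes, Gnb4 (1.41, edgeR adjusted p = 0.0121) kept its call in all 6 fits, and Gnb5 (0.95), Gng12 (0.71), Gng11 (1.69) and Gng8 (1.77) lost theirs in 5, 4, 4 and 5 of them, with adjusted p up to 0.0848, 0.0557, 0.115 and 0.128. Among genes of RGS proteins, which speed up GTP hydrolysis by alpha subunits, Rgs16 (2.30), Rgs4, Rgs5 and Rgs8 were called higher. EPS libraries held at most 2 counts of each of the last 3, so no fold is given for them. Rgs4 was at 7.23 CPM in TPS line 2 and below 0.5 CPM in the other lines, and Rgs4, Rgs8 and Rgs16 each lost their call in 3 of the 6 fits, with adjusted p up to 0.073, 0.0682 and 0.089.

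Of 62 genes of receptors that couple to Gq class proteins, 35 were tested, of which 11 were called higher (31.4%, against 14.4% of all tested genes) and 1 lower (2.86%, against 7.34%), and the median over the list was 1.27 on the log2 scale. The number called higher was 4 without TPS line 3, 6 without TPS line 1 or EPS line 2, and 8 to 11 without one of the others. The 5 higher receptor genes with the smallest adjusted p were the prokineticin receptor genes Prokr1 (2.54) and Prokr2 (2.75), the sphingosine phosphate receptor genes S1pr3 (2.41) and S1pr2 (0.81) and the lysophosphatidic acid receptor gene Lpar1 (1.61). Prokr1 and Prokr2 were barely counted in EPS cells, at 0.25 and 0.0976 CPM on average, against 1.47 and 0.69 CPM in TPS cells. EPS libraries held at most 7 and 4 of their counts. S1pr3, S1pr2 and Lpar1 averaged 3.27, 37.1 and 12.6 CPM in EPS and 17.4, 65.2 and 38.4 CPM in TPS cells. Without TPS line 3 the calls of Prokr2 and S1pr2 were lost, with adjusted p of 0.0501 and 0.066, and without EPS line 1 or 2 that of Lpar1, with adjusted p up to 0.055. Hrh1, the receptor for histamine that dimethindene of the LCDM medium blocks, was at 0.393 ± 0.298 CPM (SD, n = 3) in EPS and 0.844 ± 0.113 CPM (SD, n = 3) in TPS cells, a difference that did not pass the threshold (edgeR adjusted p = 0.228). The fibroblast genes moved with these lists. Their summed level was 370 to 1590 CPM in EPS and 3820 to 7230 CPM in TPS lines, 11 of 18 were called higher in TPS lines (61.1%, against 14.4% of all tested genes), and none was without counts. That number was 3 without EPS line 2, 4 without TPS line 1, 5 without TPS line 3 and 8 to 12 without one of the others. Their part in the higher calls among these lists, and in the lower levels of Gna14 and Gpa33, was not tested.

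**Figure D3:**
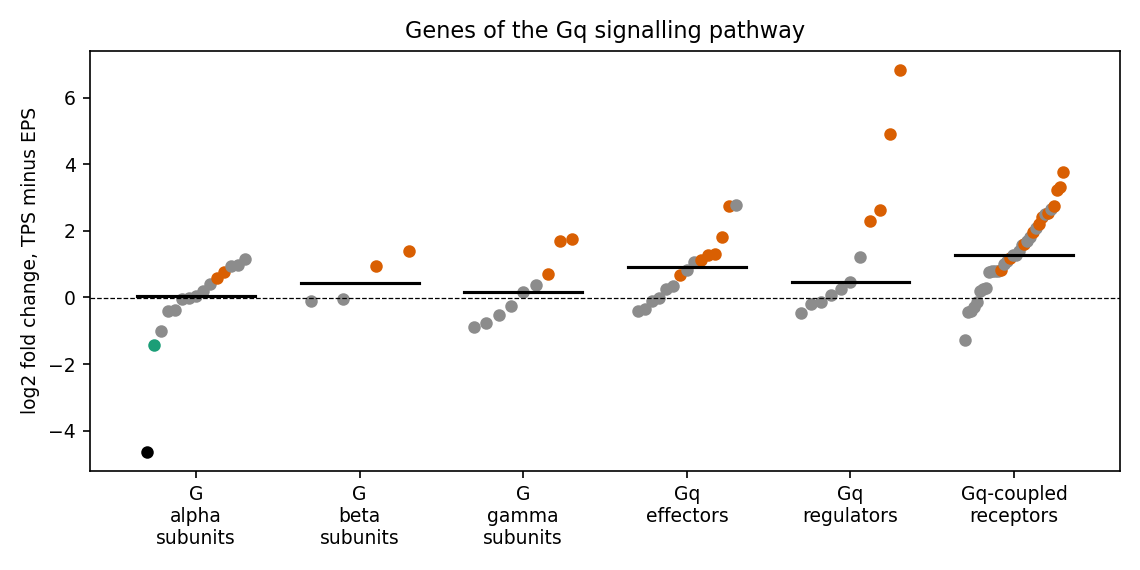
Log2 fold change of the tested genes of each list of the Gq pathway, one point a gene, without the genes whose values are not reported, green if called lower, orange if called higher, grey if not called in TPS lines and black for Gna14. Black bars are the medians of the lists, from 0.05 for the G alpha genes, Gna14 included, to 1.27 for the receptors, and the dashed line is the median of all tested genes at -0.004. The fitted values of Rgs4, Rgs5 and Rgs8 depend on the prior count, since EPS libraries held at most 2 of their counts.

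On chromosome 19, neither of the tested genes beside Gna14 was called lower in TPS lines. Gnaq ends 48298 bp before Gna14 starts, on the same strand, and was called higher, as given above. Vps13a, which encodes a lipid transfer protein and ends 4545 bp beyond Gna14, had 34.8 ± 3.29 CPM (SD, n = 3) in EPS and 32.6 ± 2.77 CPM (SD, n = 3) in TPS cells, a difference of -0.10 on the log2 scale (edgeR adjusted p = 0.68, standard error 0.149). Of the 8 tested protein-coding genes within 1 Mb, 1 was lower (12.5%, against 7.34% of all tested genes) and 3 were higher (37.5%, against 14.4%). The lower one was Psat1, of serine synthesis, 488424 bp away, which fell by 1.27 on the log2 scale (edgeR adjusted p = 0.00731). Besides Gnaq, the higher ones were Gcnt1, a glycosyltransferase gene, at 1.85, and Pcsk5, a proprotein convertase gene, at 2.40, which lost their calls in 3 and 5 of the 6 leave-one-line-out fits, with adjusted p up to 0.0695 and 0.145, and Pcsk5 ran from 1.77 to 2.77 in these fits. Cep78 (-0.08), Prune2 (-0.05) and Rfk (0.21) did not pass the threshold. Cep78, Vps13a and Prune2 are positive with library totals alone.

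On chromosome 1, neither of the tested genes nearest to Gpa33 was called lower in TPS lines. Dusp27, which lies 2315 bp before Gpa33 and encodes an atypical phosphatase of muscle, had 19.5 ± 5.47 CPM (SD, n = 3) in EPS and 18.7 ± 5.89 CPM (SD, n = 3) in TPS cells, a difference of -0.06 on the log2 scale (edgeR adjusted p = 0.9), or 0.07 with library totals alone. Mael, which acts in silencing of transposons in germ cells and lies 34690 bp beyond Gpa33, had 6.66, 3.18 and 4.27 CPM in EPS and 25.1, 20.8 and 16.8 CPM in TPS lines. It rose by 2.15 on the log2 scale (standard error 0.321, edgeR adjusted p = 0.00543). Of the 15 tested protein-coding genes within 1 Mb, 5 were higher (33.3%, against 14.4% of all tested genes) and 1 was lower (6.67%, against 7.34%). The others higher were Rcsd1 (5.09), Pogk (1.68), Fam78b (1.83) and Gpr161 (1.07), and the lower one was Sft2d2 (-0.88). Of these, Fam78b, Gpr161 and Sft2d2 lost their calls in 4, 5 and 3 of the 6 leave-one-line-out fits, with adjusted p up to 0.0865, 0.0905 and 0.0748. Ildr2 (1.51, and 1.10 to 2.35 with 1 line left out), Pou2f1 (-0.35), Creg1 (1.20, and 0.48 to 1.48), Tiprl (-0.20), Dcaf6 (0.28), Mpzl1 (0.14), Tada1 (-0.13) and Mpc2 (0.14) did not pass the threshold with edgeR, Creg1 did with DESeq2 (adjusted p = 0.0201), and Tada1 is positive with library totals alone.

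**Figure D4:**
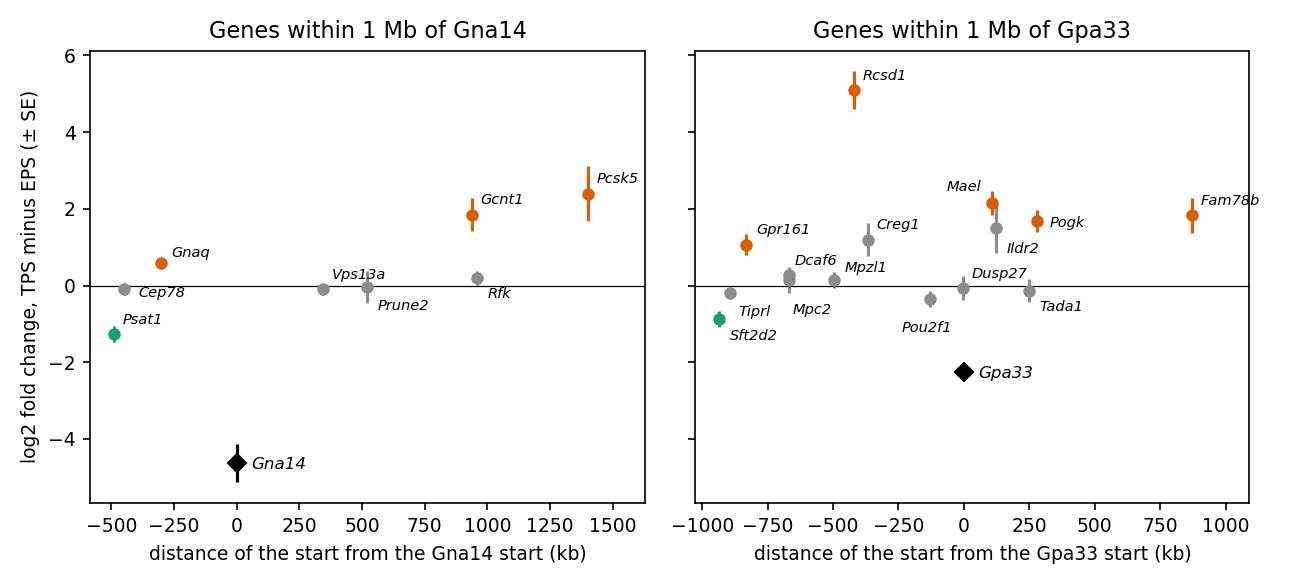
Log2 fold change with its standard error of tested protein-coding genes whose bodies lie within 1 Mb of Gna14 (left) or Gpa33 (right), against the distance of their start from that of the member in kb. Black diamonds are the members at -4.63 and -2.26, green genes were called lower, orange ones higher and grey ones not called, and of the tested genes that border the members, Vps13a and Dusp27 sit near 0 while Gnaq at 0.58 and Mael at 2.15 lie above it.

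Within the CTX family, Gpa33 was the most abundant gene of EPS cells and the second in TPS cells. Per length, it had 218 to 266 TPM in EPS lines, above F11r, a junctional adhesion molecule gene, at 70.0 to 90.2 TPM. In TPS lines F11r, at 75.6 to 83.7 TPM, lay above Gpa33, at 51.6 to 60.2 TPM, and Jam2 followed at 21.5 to 32.0 TPM, and none of these ranges overlapped. Of the 8 other tested genes of the family, 1 was lower (12.5%, against 7.34% of all tested genes) and 1 higher (12.5%, against 14.4%). Jam2, another junctional adhesion molecule gene, had 173, 127 and 102 CPM in EPS and 69.8, 45.6 and 47.8 CPM in TPS lines, with no overlap, and fell by 1.30 on the log2 scale (standard error 0.244, edgeR adjusted p = 0.011). Igsf11, which encodes a neural adhesion molecule, rose by 2.88 (standard error 0.39, edgeR adjusted p = 0.00409) from a low level of 0.259 ± 0.0285 CPM (SD, n = 3) in EPS cells. F11r (-0.17), Cxadr (-0.40), Jam3 (-0.84), Esam (1.94, and 1.49 to 2.59 with 1 line left out), Clmp (1.22) and Vsig2 (1.18, and 0.74 to 2.09) did not pass the threshold with edgeR, and with DESeq2 Jam3 and Esam did (adjusted p = 0.0319 and 0.0136).

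Among genes of the intestinal epithelium, the tissue Gpa33 is known from, calls were made in both directions. Of 30 listed genes, 19 were tested, and 6 were lower (31.6%, against 7.34% of all tested genes) and 6 higher (31.6%, against 14.4%) in TPS lines. Cdx1, one of the factors linked to Gpa33 in the gut, had 7.44, 8.33 and 11.6 CPM in EPS and 28, 81.3 and 100.0 CPM in TPS lines, and so rose where Gpa33 was lower, by 2.93 on the log2 scale (standard error 0.457, edgeR adjusted p = 0.00632). Cdx2 was at 0.0, 0.177 and 0.541 CPM in EPS and 0.675, 3.65 and 9.37 CPM in TPS lines, a rise of 4.21 (edgeR adjusted p = 0.0448) whose call was lost in 4 of the 6 leave-one-line-out fits, with adjusted p up to 0.135 and log2 fold changes of 3.13 to 5.58. Across the TPS lines, Cdx1 was highest in line 3, where Gpa33 was lowest. The TPS line with the most Gpa33 had 1.18 times that of the lowest, and a relation between the genes was not tested. Muc13 and Krt20 were also among the 5 higher genes with the smallest adjusted p, and they reached 0.455 and 1.08 CPM on average in TPS lines, while EPS libraries held at most 1 and 3 of their counts. Krt20 lost its call without EPS line 3 (adjusted p = 0.0528), and Lgr5, at 0.544 CPM in TPS lines, in 4 of the 6 fits, with adjusted p up to 0.0785.

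The intestinal genes that were lower together with Gpa33 included Klf4 and Klf5, which pluripotent cells also express. Klf4, a Krüppel-like factor shared by the gut lining and pluripotent cells, had 775, 831 and 468 CPM in EPS and 90.7, 116 and 122 CPM in TPS lines, and fell by 2.66 on the log2 scale (standard error 0.246, edgeR adjusted p = 0.00149). Klf5 fell by 0.98 (edgeR adjusted p = 0.00438). The junction gene Cldn7 fell by 2.13 (edgeR adjusted p = 0.0133). Ephb3 fell by 0.84 (edgeR adjusted p = 0.0227), a call lost without TPS line 1 or TPS line 3, with adjusted p up to 0.076. Epcam, an epithelial adhesion molecule gene, was called lower at -0.60, a call lost in 4 of the 6 leave-one-line-out fits, with adjusted p up to 0.105. Of the 30 listed genes, 11 had too few counts to be tested, with at most 7 in a library, and 3 of these, Fabp2, Tff3 and Phgr1, had none in any library. Other genes of the list were counted. The 7 that were tested and not called with edgeR, Vil1, Lgals4, Muc2, Hnf4a, Cldn3, Ceacam1 and Myo1a, of which DESeq2 called Vil1 and Myo1a (adjusted p = 0.0314 and 0.0308), had group means of 0.246 to 8.24 CPM in EPS and 0.928 to 7.39 CPM in TPS lines.

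**Figure D5:**
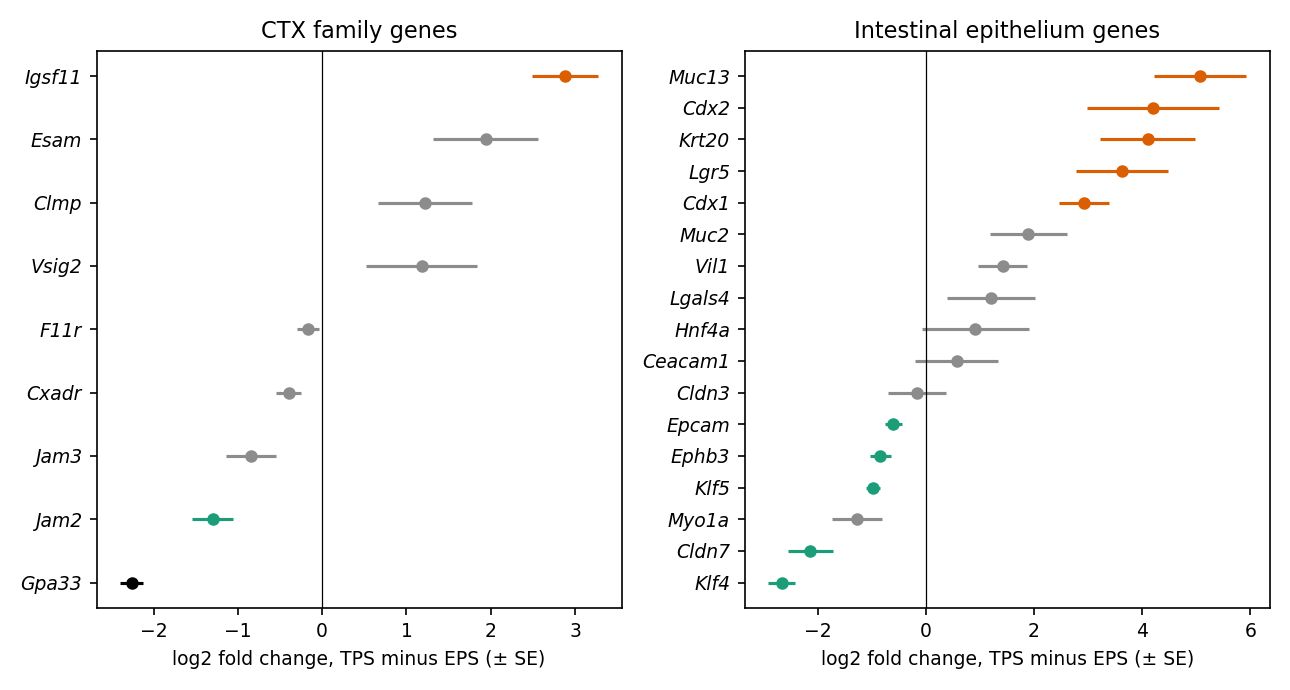
Log2 fold change with its standard error of the tested genes of the CTX family (left) and of the intestinal epithelium list (right, without the genes whose values are not reported). Green genes were called lower, orange ones higher and grey ones not called in TPS lines, and Gpa33, which was chosen for its difference, is black at -2.26. Cdx1 at 2.93 and Cdx2 at 4.21 lie on the side opposite to Gpa33, and the fitted values of Muc13, Krt20 and Lgr5 depend on the prior count, since EPS libraries held at most 3 of their counts.

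The genes most like each member were taken by Pearson's r of log2 CPM over the 6 lines, among 17229 other genes with a mean of at least 10 counts a line. For Gna14 they were Fzd5 (r = 0.9991), a Wnt receptor gene, Igbp1 (0.9986), Lrrc34 (0.9984), Parp1 (0.998), of DNA repair, and Syngr1 (0.9959). All 5 had, like Gna14, their highest level in EPS line 1 and their lowest EPS level in line 2, an order that the choice by r over these lines favours. Their log2 fold changes were -1.82, -1.01, -2.64, -0.77 and -1.84. For Gpa33 they were Cdk2 (0.9998), a cell cycle kinase gene, Tfeb (0.9982), a regulator of lysosomal genes, Dffb (0.9978), Miga1 (0.9975) and Mindy1 (0.9946), with log2 fold changes of -0.95, -2.02, -0.66, -0.97 and -1.27. The 6 points fall into the 2 cell types, so r mostly restates the difference between them, and 6.63% of the compared genes reached r of at least 0.9 with Gna14 and 6.2% with Gpa33. The members themselves had r = 0.979 with each other. Over the 12 libraries 4 of the 5 genes of each set were again among the 5 closest by Pearson's r, and none by Spearman's rho.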

How the data were processed

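Polyadenylated RNA of 3 TPS and 3 EPS lines was sequenced as 2 technical replicates a line. According to the study's methods and the submitters' processing notes, which name fastp 0.19.7 and STAR 2.7.3a, reads were aligned by the authors to GRCm38.p6 and counted per gene. The deposited values are raw counts, without normalization. The counting tool, annotation release, use of strand and treatment of reads with several positions are not given in the sources used here, so reads of paralogs or of overlapping genes could have been split or dropped. The library protocol does not mark strand.

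Group, line and technical replicate of each library came from the labels. Without their version, 55141 of the 55401 identifiers were found in GENCODE M21 (GRCm38), and symbols, positions and exon lengths were taken from it. Counts of technical replicates were summed per line. Lines were compared with edgeR 4.0.16 in R 4.3.3, using TMM factors, filterByExpr (minimum count 10, minimum total 15), quasi-likelihood F tests, a threshold of 0.05 and Benjamini-Hochberg adjustment over all tested genes. Nothing in the labels says that the lines are independent derivations, so p-values between cell types set the difference against the spread between these lines only. Lines of 1 cell type were compared over technical replicates with the same tool, where the error is technical. The tests were also run on simulated counts, the outcome of which is not reported here. TPM was computed from the counts and the union of exon lengths. Where no library of a cell type exceeded 3 counts of a gene (a floor of 0.239 CPM in EPS), no fold is printed. Alternatives were DESeq2 1.42.0, limma-voom (limma 3.58.1), other scaling factors and filters, 12 libraries as samples, technical replicates taken singly, a block for the line number and leaving out each line. Near-identical transcripts were searched with blastn 2.17.0. Promoter windows are RefSeq's for GRCm38.p6.

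The members and the gene lists were chosen with earlier results of these data known. Named were Gna14 and Gpa33, the tested members of the G alpha, Gq effector and CTX lists, up to 5 called genes per direction in the other lists, Hrh1, tested protein-coding neighbours within 1 Mb, the 5 genes with the highest r to each member, and the genes next to each in rank. Pluripotency, 2-cell and fibroblast lists served as checks, and lists for trophectoderm (2 of 7 tested genes higher, none lower) and primitive endoderm (4 of 8 higher, 1 lower) were also run, against 14.4% higher and 7.34% lower over all tested genes. Leaving out 1 line gave 0 to 3 higher trophectoderm genes, with 0 higher and 1 lower without TPS line 2, and 2 to 4 higher primitive endoderm genes, with 2 without EPS line 1 or 2. Cdx2, Epcam and the intestinal genes that were untested or not called lie outside this rule and were named after their values were seen. The values of some genes the rule names are not reported here, and they stay in the counts and medians of their lists.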

Additional observations from a re-analysis of the deposited data

How the results depend on the processing

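Gna14 had a log2 fold change of -4.23 to -4.92 and Gpa33 one of -2.12 to -2.34 over all alternatives, and neither changed direction. Library totals alone gave -2.12 for Gpa33, a shift larger than the SD between its lines, and 745 genes lower in all. Leaving out 1 line gave -4.92 to -4.23 for Gna14 and -2.34 to -2.20 for Gpa33. Over all genes, 493 to 1047 were then lower and 1617 to 2234 higher, with the fewest lower genes without TPS line 3. Treating the 12 libraries as samples gave 3610 lower and 4067 higher, and 22 lower genes instead of 11 among the paralogs, lists and neighbours. Leaving out 1 line gave 8 to 12 lower and 21 to 36 higher genes among them, against 42 higher with all lines.

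With the line number as a replicate block, 721 genes were lower and 1714 higher, 25 of the paralogs, lists and neighbours were higher, and the log2 fold changes were -4.58 for Gna14 and -2.26 for Gpa33. After subtracting group means, TPS and EPS lines of equal number correlated at 0.0239, -0.139 and 0.0185, and 0 TPS lines correlated best with the EPS line of their own number, so the lines were not treated as pairs.

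Between TPS lines, Gpa33 passed with edgeR and not with DESeq2's likelihood ratio test (adjusted p = 0.111), and the cause was not tested. With the longest transcript as the length, Gpa33 had 206.0 TPM in EPS cells instead of 240.0 and Gna14 had 3.88 TPM instead of 4.72. The TPS mean of the Gq class sum was 0.995 times the EPS mean in TPM, 0.864 times in CPM per kb and 0.977 times in CPM without length, and the last 2 were chosen after seeing the data.

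Of the 91 other named genes, all values that turned sign belong to genes that were not called. With library totals alone these were Gna11 (0.136), Gnas (0.107), Itpr1 (0.124), Arhgef25 (0.047), Cep78 (0.0663), Vps13a (0.0478), Prune2 (0.09), Dusp27 (0.0714), Cldn3 (0.00367) and Tada1 (0.0208). With upper quartile factors they were Gna11 (0.034), Gnas (0.0135) and Itpr1 (0.0257), with the filter of 50 counts Gna11 (0.018) and Itpr1 (0.0183), with limma-voom Gna11 (0.0158) and Prune2 (0.113), and with the block Gna11 (0.0117) and Prune2 (0.112). With technical replicate 1 alone they were Gna11 (0.0117), Vps13a (0.103) and Tada1 (0.149), and with technical replicate 2 alone Gnas (0.173), Itpr1 (0.0201), Arhgef25 (0.0358), Prune2 (0.164) and Dusp27 (0.042). Leaving out 1 line, the log2 fold change ran from -0.176 to 0.192 for Gna11, from -0.297 to 0.208 for Gnas, from -0.21 to 0.122 for Itpr1, from -0.425 to 0.44 for Prune2, from -0.269 to 0.168 for Dusp27, from -0.796 to 0.202 for Cldn3, from -0.0532 to 0.127 for Gnai3, from -0.0569 to 0.522 for Mpc2 and from -0.021 to 0.26 for Mpzl1. Of the 1498 refits of these genes, 1280 kept direction and side of the threshold, 122 lost a call and 49 gained one. Depth limits Gna14 in TPS cells, where 30 counts in all libraries gave no order among lines.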

Other observations

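Gm10819, a processed pseudogene that lies inside Gnaq and within 1 Mb of Gna14, was high in line 1 of both cell types, at 16.8 CPM in EPS line 1 and 10.6 CPM in TPS line 1, against 0.912 to 1.75 CPM in the other 4 lines. Whether lines of equal number share an origin was not tested.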
